A study of Mus musculus with 8 samples.

Results

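The S100 genes encode a family of small calcium-binding proteins, and 10 of them (S100a1, S100a3, S100a4, S100a6, S100a10, S100a11, S100a13, S100a14, S100a16 and S100g) were followed here through an experiment with the MEK inhibitor trametinib in pancreatic ductal adenocarcinoma (PDAC) cells. The members were taken by gene symbol, and all 10 were found among the 34478 genes of the deposited table and passed the filter on low values that left 15888 genes for testing. The cells were 4 primary murine PDAC lines, numbered #1, #3, #5 and #10, and each line gave 1 DMSO library and 1 trametinib library, 8 libraries in all. All 8 libraries came from mice that were Ptf1awt/Cre and Trp53loxP/loxP. In this model Cre made from the Ptf1a locus, active in the pancreatic lineage, deletes Trp53, so the DMSO cells carry these alleles too. The trametinib libraries were made after 48 h with the dose that was each line's own IC50, so the dose differed between lines, and the DMSO libraries were treated with the solvent as control. The labels give neither the age of the mice nor whether each line came from a separate mouse, so p-values measure the spread between these 4 lines.

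S100 proteins carry a pair of EF-hand motifs, loops that hold a calcium ion, and most work as dimers that change shape when calcium binds and then attach to a target protein. They have no enzyme activity of their own, and annexins, cytoskeletal proteins and, outside the cell, receptors such as RAGE are among their targets. Most of the genes lie side by side in the epidermal differentiation complex, and several of the proteins, S100A4, S100A6 and S100A11 among them, are known for high levels in pancreatic cancer. The MEK kinases activate ERK, and trametinib blocks this step.

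In GENCODE M21 (GRCm38), 9 of the 10 genes lie on chromosome 3, from S100a1 at chr3:90511034-90514392 to S100a10 at chr3:93555080-93564643, and S100g lies alone at chrX:162961992-162964599. RefSeq promoter windows (GRCm38.p6), which run from 250 bases before to 50 after an annotated start, were found for 8 of the 10 genes, 12 windows in all, and S100a10 and S100a14 had none. S100a1 and S100a13 are transcribed away from each other. Their RefSeq starts used for the windows are at 90514330 on the minus strand and 90514435 on the plus strand, 105 bases apart. Other annotated ends differ: the RefSeq span of S100a13 begins at 90514233, inside S100a1, and GENCODE ends S100a1 at 90514392. The stretch around both starts used for the windows is shown because the RNA levels of this pair separated with trametinib, as described further on. It is the plus strand of chr3:90514185-90514484, with the 106 bases from one of those starts to the other in capitals:

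S100a1/S100a13 start region: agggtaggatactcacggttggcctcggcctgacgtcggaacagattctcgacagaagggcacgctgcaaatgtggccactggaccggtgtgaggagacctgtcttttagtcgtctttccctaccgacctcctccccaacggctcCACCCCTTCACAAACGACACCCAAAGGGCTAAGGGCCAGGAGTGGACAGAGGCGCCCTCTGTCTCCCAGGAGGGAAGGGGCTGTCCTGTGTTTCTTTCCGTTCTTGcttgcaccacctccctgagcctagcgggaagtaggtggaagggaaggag

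Each window was searched on both strands for 5 short motifs, and the share of all 32851 RefSeq windows of this length that hold them was counted. The AP-1 motif, TGANTCA, occurred in 7.81% of all windows. The ETS motif was searched as CCGGAA and occurred in 14.9%. A TATA motif, spelled TATAAA here, occurred in 13.6% of all windows. The GC box was searched as GGGCGG and occurred in 35.7%. The E-box, searched with the letters CACGTG, occurred in 7.15%. AP-1 and ETS factors are targets of ERK signaling. Over the 12 windows of the 8 genes, AP-1 matches lay in the window of S100a11 and in 1 window of S100a16. The windows of S100a6 and S100a13, both lower with trametinib, held no AP-1 match, and S100a10 and S100a14, also lower, had no window to search. Whether a match had a part in any change was not tested. No member window held the ETS letters. The 3 windows below are shown for the AP-1 matches of S100a11 and S100a16, which were both lower with trametinib, and for S100g, the 1 member that was higher. Capitals mark every match to the 5 motifs, none of which overlapped another in these windows.

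S100a11, chr3:93520246-93520545, plus strand: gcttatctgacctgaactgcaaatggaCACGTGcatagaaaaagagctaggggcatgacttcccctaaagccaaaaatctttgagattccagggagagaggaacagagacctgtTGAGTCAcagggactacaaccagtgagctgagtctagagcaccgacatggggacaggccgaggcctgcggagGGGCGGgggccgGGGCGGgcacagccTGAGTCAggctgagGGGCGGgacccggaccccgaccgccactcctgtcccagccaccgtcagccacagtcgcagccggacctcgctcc

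S100a16, second RefSeq start, chr3:90540896-90541195, plus strand: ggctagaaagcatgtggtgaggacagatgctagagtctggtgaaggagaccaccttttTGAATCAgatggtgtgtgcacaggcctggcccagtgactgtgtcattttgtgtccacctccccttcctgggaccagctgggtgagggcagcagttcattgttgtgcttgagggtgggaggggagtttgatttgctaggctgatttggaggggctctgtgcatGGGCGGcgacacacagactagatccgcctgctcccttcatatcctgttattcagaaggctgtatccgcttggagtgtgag

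S100g, chrX:162964550-162964849, minus strand: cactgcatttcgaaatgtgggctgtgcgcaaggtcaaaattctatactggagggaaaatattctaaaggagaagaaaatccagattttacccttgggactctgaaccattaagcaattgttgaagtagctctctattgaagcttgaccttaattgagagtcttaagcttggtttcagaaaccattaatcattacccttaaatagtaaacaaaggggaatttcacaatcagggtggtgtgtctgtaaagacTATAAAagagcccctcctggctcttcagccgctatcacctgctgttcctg

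Counted from the annotated start, the AP-1 matches of S100a11 began at -136 and -38, and the window also held an E-box at -223 and GC boxes at -64, -52 and -24. In S100a16 the AP-1 match began at -192 and a GC box at -30, and the window of its first start held none of the motifs. The S100g window held a TATA motif at the annotated start itself. A match only says that these letters are present in the window.

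With trametinib, 6 of the 10 S100 genes were lower, 1 was higher and 3 did not pass at an adjusted p under 0.05 (limma, blocked by line, Benjamini-Hochberg over all genes tested). S100a14, S100a16, S100a13, S100a10, S100a6 and S100a11 fell and S100g rose, while S100a1, S100a3 and S100a4 did not pass. Over all genes tested 53.0% passed in either direction, 25.6% as lower and 27.3% as higher, so a call by itself is common in these data. The median log2 fold change of the 10 genes was -0.51, against 0.07 for all genes tested. In 3 members, S100a10, S100a13 and S100a14, all 4 trametinib libraries lay below all 4 DMSO libraries, a separation found in 16.2% of all genes, and no member had all 4 trametinib libraries above all 4 DMSO libraries, which 15.1% of all genes had. The libraries are bulk RNA, in which fewer cells of a kind and less RNA per cell cannot be told apart.

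**Figure D1:**
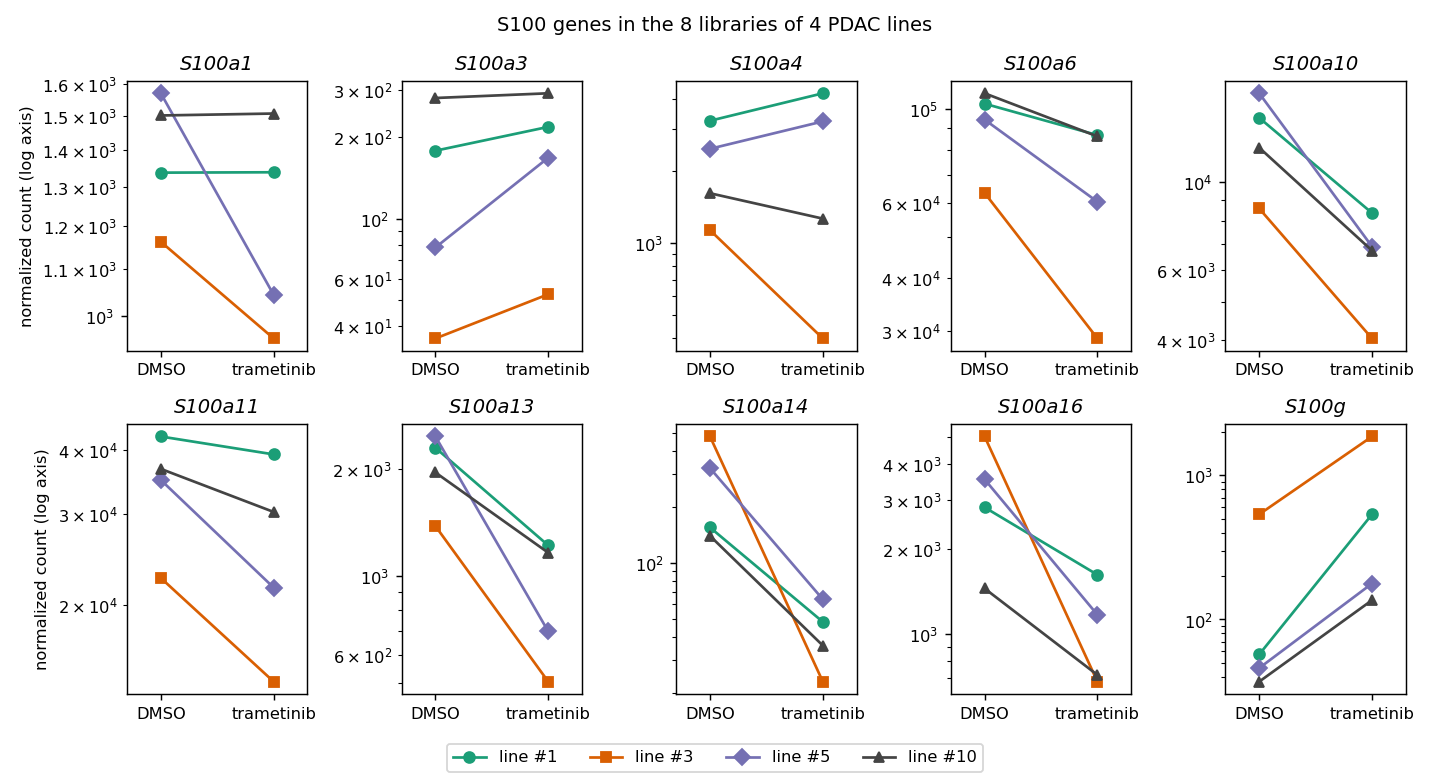
Normalized count of each S100 gene (log axis, 1 panel a gene) in the DMSO and trametinib library of each of the 4 lines, joined by a line. S100a14 went from between 139.9 and 479.9 with DMSO to between 23.0 and 63.7 with trametinib, S100g rose in each line, and line #3 stands apart from the other lines in most panels.

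**Figure D2:**
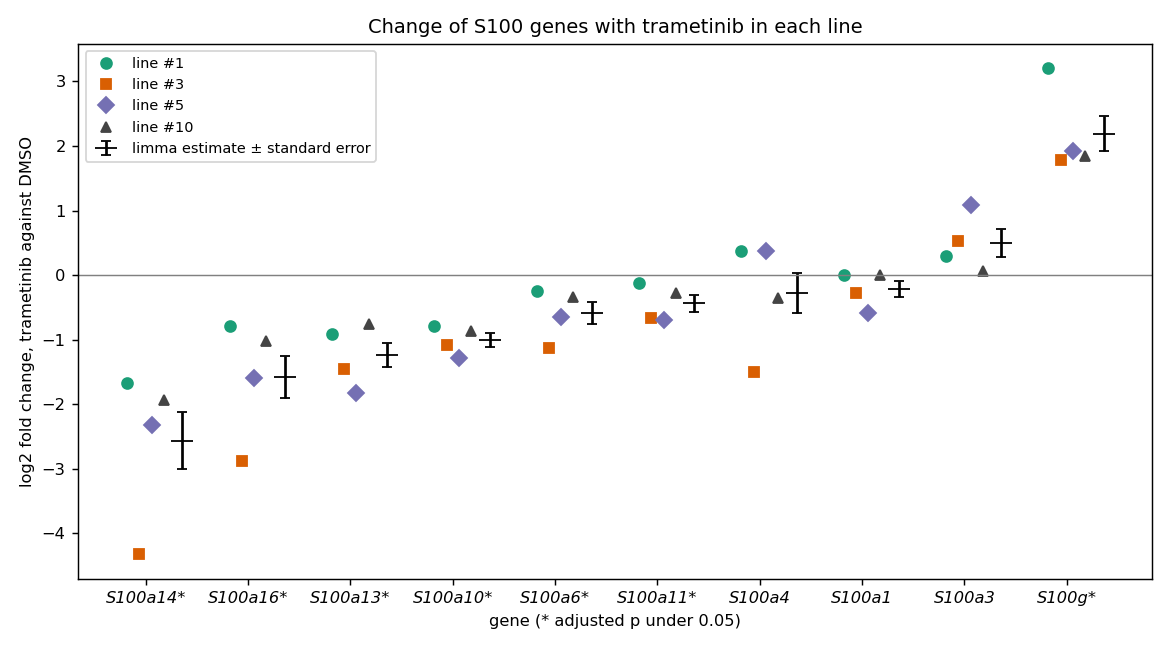
The log2 fold change, trametinib against DMSO, of each S100 gene (horizontal axis, ordered by the estimate) in each line as a symbol, with the limma estimate ± standard error beside it. S100a14 has the lowest estimate, -2.56, and S100g the highest, 2.19, and the 4 lines lie on both sides of 0 for S100a4 and S100a1.

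The response to the drug itself was large in every line. Dusp6, a phosphatase gene that ERK switches on to limit its own signal, had 4992, 5869, 9662 and 7520 normalized counts in the DMSO libraries and 638, 1094, 2231 and 1278 in the trametinib libraries, given here and throughout in the order #1, #3, #5 and #10. It fell in all 4 lines, by 2.51 on the log2 scale (standard error 0.14, adjusted p = 0.00012). Library totals were 30680091 to 36385719 normalized counts, from about 29300000 to 45900000 reads as estimated from the step between low values. By that estimate a single read was worth 0.775 to 1.24 normalized counts, although only 55.5% to 68.0% of low values were whole multiples of the step. Read numbers given here are therefore approximate. The lowest values of members rest on few reads, about 24 for S100a14 and 35 for S100a3, both in line #3, and about 39 for S100g in line #10. Keratin genes and Cdh1, which mark epithelial cells, were high in every library. The 8 epithelial markers sum to between 221230 and 348818 normalized counts with DMSO and between 113156 and 222090 with trametinib, although Epcam was listed at 0 in lines #1, #5 and #10 and at 10.4 and 3.75 in line #3.

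The 3 most abundant members were S100a6, S100a11 and S100a10, which together made up 90.7% to 96.0% of the normalized counts of all 10 genes in each library. The 10 genes together held 0.477%, 0.312%, 0.430% and 0.474% of all normalized counts with DMSO and 0.434%, 0.168%, 0.291% and 0.405% with trametinib. The share was lower with trametinib in each line, and lowest in line #3 under both treatments.

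S100a6, calcyclin, a protein linked to proliferating cells that binds annexins and the calcyclin-binding protein, was among the 27 most abundant genes of every DMSO library. It stood at 102676, 63368, 94201 and 108617 normalized counts with DMSO and at 86609, 28850.1, 60411 and 86033 with trametinib. All 4 lines were lower with the drug, line #3 the most, but the groups overlapped, since the DMSO library of line #3 lay below the trametinib libraries of lines #1 and #10. S100a6 fell by 0.59 on the log2 scale (standard error 0.17, adjusted p = 0.025). The call was lost when line #5 was left out (-0.57, adjusted p = 0.093), when libraries were rescaled to equal totals (-0.46, adjusted p = 0.057) and with quantile normalization (-0.48, adjusted p = 0.067).

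S100a11, calgizzarin, a partner of annexin A1 with roles in growth control and membrane repair, stood at 42475, 22581, 34973 and 36753 normalized counts with DMSO. With trametinib the values were 39212, 14216, 21635 and 30326. Each line was lower, by 0.12 to 0.69 on the log2 scale, and the groups overlapped. S100a11 fell by 0.44 on the log2 scale (standard error 0.13, adjusted p = 0.027). This was the least stable of the 7 calls: the adjusted p rose to 0.12 without line #5, 0.059 without line #10, 0.077 with equal totals, 0.21 with quantile normalization and 0.057 in eBayes without a trend. Of its 31-base words 48.9% also occur in transcripts of other genes, mostly the pseudogene Gm12854, listed at 0 to 4.80 normalized counts, so the counting could have split reads between them.

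S100a10 encodes a member that does not bind calcium. Its dimer joins annexin A2 in a tetramer at the cell membrane that serves there as a docking site for plasminogen. S100a10 stood at 14492, 8577, 16698 and 12192 normalized counts with DMSO and at 8355, 4045, 6881 and 6724 with trametinib. Every trametinib library lay below every DMSO library, although the highest of them, line #1 at 8355, was close to the DMSO library of line #3 at 8577. S100a10 fell by 1.00 on the log2 scale (standard error 0.11, adjusted p = 0.00065), or 2.01-fold, and the 4 lines ranged only from -0.79 to -1.28.

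Anxa2, the partner of S100a10, fell as well. It stood at 78483, 41266, 86708 and 52276 normalized counts with DMSO and at 28505, 12186, 28427 and 23640 with trametinib, without overlap, a fall by 1.49 on the log2 scale (standard error 0.13, adjusted p = 0.00037). The ratio of Anxa2 to S100a10 normalized counts was 5.42, 4.81, 5.19 and 4.29 with DMSO and 3.41, 3.01, 4.13 and 3.52 with trametinib. Anxa2 was thus the lower of the pair relative to DMSO in each line, a comparison made after the values were seen and not tested. Among 9 genes of the plasminogen system, 7 were tested, of which 2 were higher, 2 lower and 3 did not pass, with a median log2 fold change of -0.36. The plasminogen receptor gene Plgrkt rose by 1.10 on the log2 scale (adjusted p = 0.00054). Eno1, a glycolytic enzyme that also binds plasminogen at the cell surface, and Plaur, the urokinase receptor, fell by 1.02 and 0.60 (adjusted p = 0.0018 and 0.0013). The activators did not pass, with log2 fold changes of -0.55 for Plat and -0.36 for Plau (adjusted p = 0.40 and 0.16), and Plg itself was listed at 0 in every library. The lines were split for Plat, with log2 fold changes of -1.73, 1.66, -1.30 and -0.82, and the estimate was -1.28 without line #3 (adjusted p = 0.0012), past the threshold.

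S100a13, which binds FGF1 and takes part in its release from cells by a route outside the secretory pathway, stood at 2294, 1381, 2469 and 1955 normalized counts with DMSO. With trametinib it stood at 1218, 503, 697 and 1161. All trametinib libraries were below all DMSO libraries, and lines #5 and #3 changed more than lines #1 and #10, with log2 fold changes of -1.82 and -1.45 against -0.91 and -0.75. S100a13 fell by 1.24 on the log2 scale (standard error 0.18, adjusted p = 0.0019), or 2.35-fold. Fgf1 was also lower, from 1147, 4077, 1860.3 and 2896 to 839, 1146, 982 and 1865 normalized counts (log2 fold change -0.96, standard error 0.22, adjusted p = 0.010).

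S100a1, best known from heart muscle, where it acts on the calcium channels of the sarcoplasmic reticulum, is the head-to-head neighbour of S100a13. It stood at 1337, 1162, 1570.5 and 1501 normalized counts with DMSO and at 1338, 956, 1044 and 1507 with trametinib. Lines #1 and #10 were level, at log2 fold changes of 0.0011 and 0.0057, while lines #3 and #5 were at -0.28 and -0.59. The estimate was -0.22 (95% interval -0.52 to 0.08, adjusted p = 0.19), so S100a1 did not pass, and the interval leaves room for a fall of up to 0.52 on the log2 scale. The ratio of S100a13 to S100a1 normalized counts was 1.72, 1.19, 1.57 and 1.30 with DMSO and 0.910, 0.527, 0.668 and 0.771 with trametinib, below 1 in each trametinib library and above 1 in each DMSO library. The pair shares the start region printed above, and their RefSeq windows overlap by 204 bases. This ratio was chosen after the values were seen and was not tested. Across the 8 libraries the log2 levels of the pair had a Pearson r of 0.83, as a description over libraries that share lines and treatments.

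S100a14 and S100a16 are neighbours on chromosome 3, at chr3:90526856-90528837 and chr3:90537254-90543151, and are known mainly from epithelial cells, where the proteins can bind each other. They had the largest falls of the 10 genes. S100a14 stood at 155, 479.9, 324 and 139.9 normalized counts with DMSO and at 48.2, 23.0, 63.7 and 35.9 with trametinib, without overlap. The order of the lines turned over: line #3 was the highest with DMSO and the lowest with trametinib. S100a14 fell by 2.56 on the log2 scale (standard error 0.44, adjusted p = 0.0032), or 5.91-fold, and by 4.33 in line #3. Without line #3 the log2 fold change was -1.98 (adjusted p = 0.00078). Of the 15888 genes tested, 110 (0.692%) had a more negative log2 fold change than S100a14.

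S100a16, which binds calcium only weakly, stood at 2815, 5019, 3537 and 1452 normalized counts with DMSO and at 1623, 679, 1171 and 717 with trametinib. Here too line #3 went from highest to lowest, and the groups overlapped, since the DMSO library of line #10 lay below the trametinib library of line #1. S100a16 fell by 1.57 on the log2 scale (standard error 0.32, adjusted p = 0.0066), or 2.97-fold, and the estimate was -1.13 without line #3 (adjusted p = 0.0016). S100a14 and S100a16 had a Pearson r of 0.94 over the 8 libraries. Beside these falls, 5 of the 7 epithelial markers tested were lower, among them Krt18, Krt7 and Sox9 at -0.82, -0.97 and -1.49 on the log2 scale (adjusted p = 0.0054, 0.012 and 0.013), Cldn4 was higher at 4.61 (adjusted p = 0.00096, and 5.39 without line #1) and Cdh1 was at -0.02 (adjusted p = 0.88). The part of these markers in the S100 results was not tested.

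S100a4, also called metastasin or fibroblast-specific protein, binds the heavy chain of non-muscle myosin and is linked to cell movement. It stood at 3242, 1131, 2475 and 1614 normalized counts with DMSO and at 4223, 399, 3221 and 1264 with trametinib. The lines went apart: lines #1 and #5 were each higher by 0.38 on the log2 scale, line #10 was at -0.35 and line #3 at -1.50. The estimate was -0.27 (95% interval -1.0 to 0.46, adjusted p = 0.48), and without line #3 it was 0.14 (adjusted p = 0.49), so neither a direction nor its absence can be read from these lines. Exons of another gene, Gm42674, overlap those of S100a4, and its transcripts share 49.2% of the 31-base words of S100a4. Gm42674 stood at 1.00 to 102 normalized counts, so some reads could have been split. Summed over 12 genes, fibroblast markers were at 116 to 372 normalized counts with DMSO and 459 to 1266 with trametinib. Of the 5 tested, 1, Col1a1, was higher (log2 fold change 3.60, adjusted p = 0.00087), the other 4 did not pass, and Lum was listed at 0. The part of these markers in the S100a4 values was not tested.

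S100a3, a cysteine-rich member best known from the hair cuticle, was among the lowest, at 178, 36, 78.2 and 279 normalized counts with DMSO and 218, 52.5, 168 and 291 with trametinib. Each of the 4 lines was higher with the drug, from 0.058 in line #10 to 1.09 in line #5 on the log2 scale, but the groups overlapped almost fully. The estimate of 0.49 (95% interval -0.03 to 1.01, adjusted p = 0.097) did not pass. The spread between lines, 7.76-fold with DMSO from the lowest to the highest, was larger than the change in any of the lines.

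S100g, the small calbindin that carries calcium through the cytoplasm of intestinal and uterine epithelium, was the member that rose. It stood at 57.2, 536, 46.0 and 37.0 normalized counts with DMSO and at 535, 1856, 178 and 136 with trametinib. Each line was higher, yet the groups overlapped: line #3 with DMSO was level with line #1 with trametinib and above lines #5 and #10 with trametinib. S100g rose by 2.19 on the log2 scale (standard error 0.27, adjusted p = 0.0010), or 4.57-fold, with 3.20 in line #1 and 1.79 to 1.92 in the other 3 lines. Of all genes tested, 625 (3.93%) had a larger positive log2 fold change. The call was lost in the fit without the line as a block (adjusted p = 0.14).

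Of 11 genes of calcium transport and vitamin D response, the setting in which S100g is known in the intestine, 10 were in the table and 5 were tested, with 2 higher, 2 lower and 1 not passing. Atp2b4, a plasma membrane calcium pump, went from 112, 32.2, 34.7 and 147 to 1941, 1652, 1451 and 3273 normalized counts (log2 fold change 4.89, standard error 0.27, adjusted p = 0.00012). The sodium-calcium exchanger Slc8a1 was higher at 3.69 (adjusted p = 0.0023), on values of 0 to 48.3 with DMSO and 9.05 to 294 with trametinib, and the size depended on the pseudocount (5.33 with 0.1 and 2.57 with 5) and was 2.95 without line #1. The pump gene Atp2b1 and the receptor gene Rxra were lower at -0.71 and -0.66 (adjusted p = 0.0075 and 0.0025). Vdr, the vitamin D receptor, was low, at 4.82 to 26.4 with DMSO and 7.79 to 29.6 with trametinib, and did not pass (0.16, adjusted p = 0.70), Trpv6, the calcium entry channel of the gut, was listed at 0 in every library, and Cyp24a1 stayed at 6.98 or lower.

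Per kilobase of transcript, the order of levels with DMSO was S100a6, S100a11, S100a10, S100a4, S100a16, S100a13, S100a1, S100a14, S100a3 and S100g. The medians ran from 164750 normalized counts per kb for S100a6 to 108 for S100g. S100a6, S100a11 and S100a10 did not overlap with each other or with the next gene over the 4 DMSO libraries, S100a4, S100a16, S100a13 and S100a1 each overlapped with the next as a middle group with medians of 4903, 3613, 2971 and 2264 per kb, and S100a14, S100a3 and S100g overlapped as a low group with medians of 262, 218 and 108. With trametinib S100a16 went from the fifth to the seventh place with a median of 1074 per kb, the median of S100g, 742, lay above those of S100a3 and S100a14 although its range overlapped with that of S100a3, and S100a14 was last with 46.0, below S100a3 without overlap.

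Line #3 was at an extreme of the 4 lines for all 10 genes with DMSO and for all 10 with trametinib. With DMSO it was the lowest line for 7 genes and the highest for S100a14, S100a16 and S100g, and with trametinib the lowest for 9 and the highest for S100g. Over all genes tested line #3 was at an extreme in 56.9% with DMSO and 67.9% with trametinib. The other lines were at an extreme in 45.0% to 50.5% with DMSO and 42.9% to 45.1% with trametinib. Line #3 thus stood apart in general, slightly with DMSO and more with trametinib. With 1 library per line and treatment the difference between lines has no replicate. Relative to the median of the other 3 lines, S100g in line #3 was 11.6-fold higher with DMSO and 10.5-fold higher with trametinib. S100a3 in line #3 was 4.95-fold lower with DMSO, and S100a4 was 2.19-fold lower with DMSO and 8.07-fold lower with trametinib. S100a14 and S100a16 went from 3.09-fold and 1.78-fold higher with DMSO to 2.10-fold and 1.73-fold lower with trametinib. The largest change among the 4 lines fell on line #3 for 4 genes (S100a4, S100a6, S100a14 and S100a16), on line #5 for 5 and on line #1 for S100g, where line #3 takes 48.2% and line #5 19.9% of all genes.

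**Figure D3:**
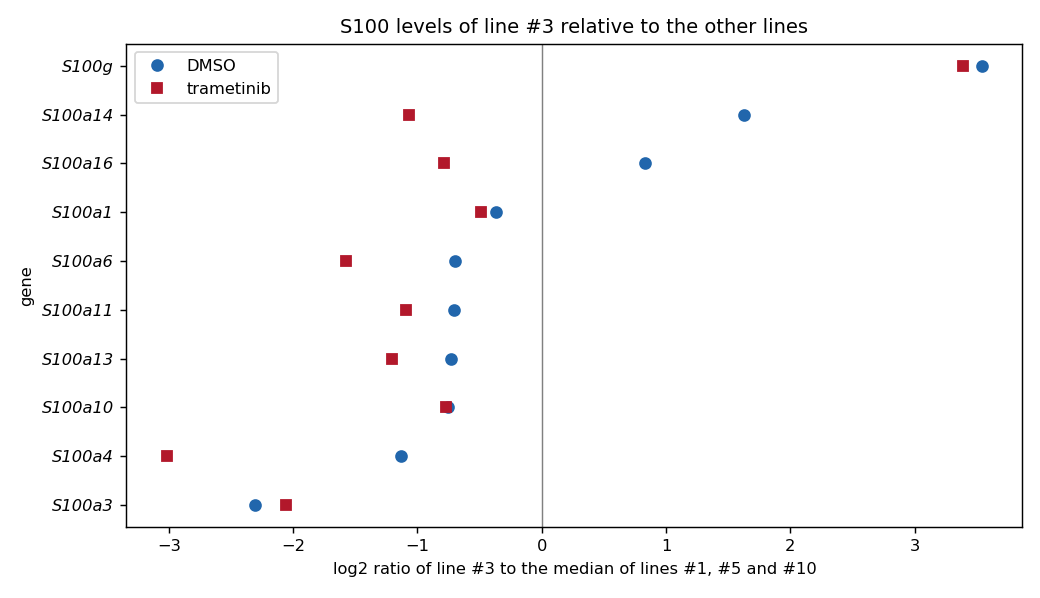
The log2 ratio of the normalized count in line #3 to the median of lines #1, #5 and #10 (horizontal axis), for each S100 gene with DMSO (circles) and trametinib (squares). S100a14 and S100a16 lie above 0 with DMSO and below 0 with trametinib, S100g lies above 0 under both treatments, and the other 7 genes lie below 0.

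The genes around the members on chromosome 3 were looked at next. Of 45 other coding genes between the outermost members that are in the table, 9 passed the filter, of which 1 was higher, 3 lower and 5 did not pass. S100a7a, a further S100 gene, stood at 2371, 235, 4484 and 3696 normalized counts with DMSO and at 1050.4, 215, 966 and 1108 with trametinib (log2 fold change -1.31, standard error 0.31, adjusted p = 0.012). Involucrin, Ivl, a protein of the cornified envelope, went from 364, 260.4, 228 and 69.0 to 10.8, 17.8, 5.61 and 3.85 normalized counts (-4.43, adjusted p = 0.00026). Sprr2h was lower as well (-4.44, adjusted p = 0.0077), on values of 2.93 to 227 with DMSO and 0 to 0.771 with trametinib. Its size depended on the pseudocount (-7.06 with 0.1 and -2.67 with 5) and was -5.26 without line #3. The value of 227 was in line #10, and without that line Sprr2h did not pass the filter. Sprr1a, also of the cornified envelope, was higher (0.86, adjusted p = 0.0058), and Lor, Sprr2a1, Sprr2a2, Sprr2a3 and Tchh did not pass. The genes beside the cluster, Ilf2 and Chtop, were lower at -0.90 and -0.67 (adjusted p = 0.00053 and 0.0027). Snapin, between them, was higher at 0.28 (adjusted p = 0.044), a call lost without any 1 of the 4 lines (adjusted p = 0.065 to 0.16). On chromosome X, Syap1, a neighbour of S100g, and Ctps2, whose RefSeq span covers S100g, were higher at 0.67 and 0.75 (adjusted p = 0.0027 and 0.0016), and S100g shares 0 of its 31-base words with other genes. Of a list of 14 further genes in the table, of S100 proteins, S100-fused proteins and the S100-binding protein gene S100pbp, 3 (S100a7a, S100pbp and Tchh) passed the filter. S100a2, which was not on the list, stood at 0 to 9.86 normalized counts, and S100a8 and S100a9, the calprotectin genes of myeloid cells, reached at most 18.7 and 5.69 normalized counts.

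**Figure D4:**
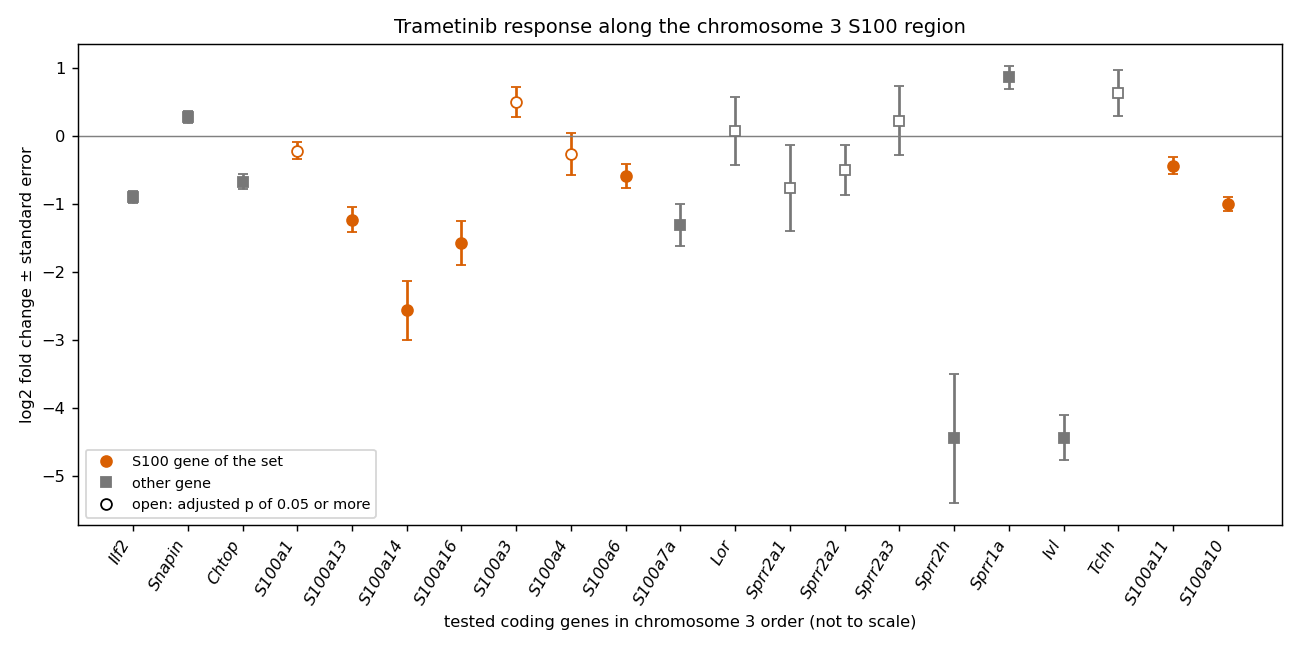
The log2 fold change, trametinib against DMSO, with its standard error, of the tested coding genes around the chromosome 3 S100 genes, in chromosome order and not to scale. Circles are the S100 genes of the set and squares other genes, and open symbols did not pass. S100a13, S100a14 and S100a16 lie together between -2.56 and -1.24, beside S100a1 at -0.22.

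The RNA of genes whose proteins bind S100 proteins changed in both directions. Of 12 annexin genes 3 were higher, 7 lower and 2 did not pass, with a median log2 fold change of -0.58. Over all genes tested 27.3% were higher and 25.6% lower. Anxa10 and Anxa2 had the largest falls (-2.72 and -1.49), followed by Anxa13 (-0.85), Anxa9 (-0.75) and Anxa11 (-0.72), a partner of S100a6. Anxa6, Anxa1 and Anxa5 were higher (1.64, 0.64 and 0.32). Anxa1, the partner of S100a11, went from 9683, 5579.8, 8454 and 9064 to 16907, 6017, 16089 and 14747 normalized counts (adjusted p = 0.0095), the opposite direction to S100a11. Some of these calls did not pass with 3 lines, at log2 fold changes of -0.52 for Anxa11, -0.93 to -0.73 for Anxa13 and 0.28 to 0.33 for Anxa5: the adjusted p of Anxa11 (0.018) was 0.056 without line #5, that of Anxa13 (0.041) was 0.14, 0.14 and 0.073 without lines #1, #5 and #10, and that of Anxa5 (0.023) was 0.072, 0.081 and 0.12 without the same lines.

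Of 20 binding partners 6 were higher, 11 lower and 3 did not pass, with a median of -0.39, and 6 were lower when line #5 was left out. Anxa1, Anxa2, Anxa6 and Anxa11 are on both this list and the annexin list, so both counts hold them. The 11 include Trp53, the gene that Cre deletes in this model, which was still listed at 353, 275, 327 and 355 normalized counts with DMSO and 196, 216, 218 and 278 with trametinib. Cacybp, the calcyclin-binding protein that S100A6 holds, went from 4681, 5636, 4858 and 5742 to 2370.4, 1470.4, 1950.5 and 3012 normalized counts, without overlap (-1.29, standard error 0.17, adjusted p = 0.0013). Fkbp4, a co-chaperone, fell by 1.07 on the log2 scale (adjusted p = 0.00084). Ahnak, a giant scaffold protein that the S100A10-annexin A2 complex holds at the membrane, fell by 0.43 (adjusted p = 0.021), but not past the threshold without line #1 or #5 (adjusted p = 0.060 and 0.090), with equal totals (0.068) or with quantile normalization (0.46). Myh9, the non-muscle myosin that S100A4 binds, rose from 46948, 28269, 60794 and 31976 to 82102, 39768, 121496 and 56422 normalized counts (0.78, standard error 0.12, adjusted p = 0.0022), and Ppfibp1, liprin beta, another partner of S100A4, rose by 0.76 (adjusted p = 0.00098).

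Among 8 tested receptors of extracellular S100 proteins 3 were higher, none lower and 5 did not pass, with a median log2 fold change of 0.61. Over all genes tested 27.3% were higher and 25.6% lower, and the receptors were not tested as a set. Mcam rose from 52.0, 41.7, 40.6 and 33.1 to 1139, 2580.5, 2057 and 976 normalized counts (5.20, standard error 0.26, adjusted p = 9.6e-05). Ager, which encodes RAGE, was low at 49.9, 85.4, 81.4 and 58.0 with DMSO and 86.0, 199.6, 125 and 114 with trametinib, without overlap (0.89, adjusted p = 0.0090), a call lost with quantile normalization (0.45, adjusted p = 0.11), and Tlr4 was higher at 0.91 (adjusted p = 0.0022). Markers of other cell types moved as well. The summed level of the 7 immune markers in the table was 152 to 233 with DMSO and 241 to 525 with trametinib, with Csf1r higher and no other of 4 tested passing. That of 6 endothelial markers was 38.1 to 82.9 and 75.5 to 1779, with Tek and Vwf higher of 4 tested. The sum of 1779 was in line #3, where Tek and Vwf stood at 805 and 948 with trametinib. The log2 fold changes of Vwf were 2.12, 5.06, 0.61 and 0.77. The summed level of 6 acinar markers was 46.5 to 254 and 19.5 to 128, with Cela1 lower and Cpa1 listed at 0. Their part in the receptor values was not tested.

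**Figure D5:**
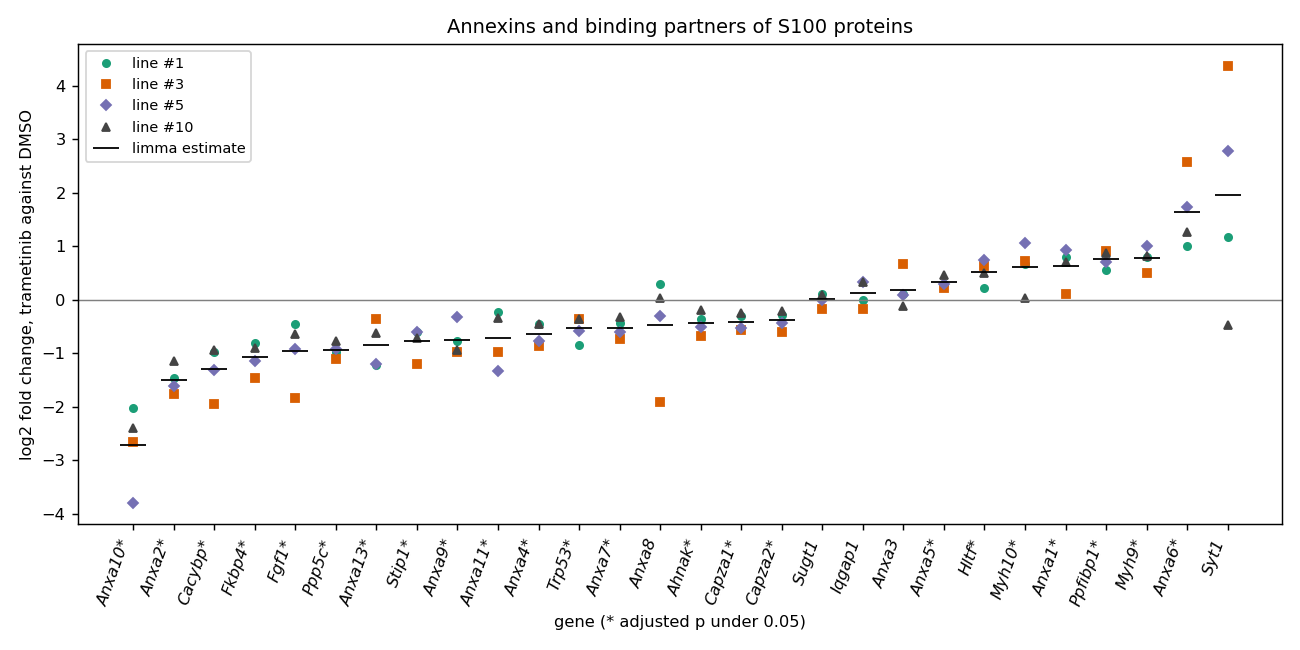
The log2 fold change, trametinib against DMSO, of annexins and binding partners of S100 proteins (horizontal axis, ordered by the limma estimate, * adjusted p under 0.05), with each line as a symbol and the estimate as a bar. Anxa2, Cacybp and Anxa10 lie below 0 in all 4 lines, and Anxa6 and Myh9 above 0 in all 4.

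The 3 members with the widest range of log2 level over the 8 libraries were S100g (5.61), S100a14 (4.33) and S100a4 (3.40). The genes most like S100g by Pearson r over the 8 libraries were Cox19 (0.986), Casp12 (0.981) and Degs1 (0.978). Those most like S100a14 were Coq2 (0.995), Gas2l3 (0.993) and Rcc1l (0.982), and those most like S100a4 were Arc (0.992), Mtor (0.986) and Vta1 (0.973). These were picked from all other genes tested, over 8 libraries that share lines and treatments, and they describe a likeness of pattern only. Among the members themselves, S100a10 and S100a13 (r = 0.96), S100a6 and S100a11 (0.95) and S100a14 and S100a16 (0.94) were the most alike, and S100g had a negative r with each of the other 9, from -0.84 to -0.29.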

How the data were processed

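PolyA RNA of the 8 libraries was prepared with a stranded mRNA kit and sequenced. The authors deposited normalized counts per gene symbol, a signal scaled across libraries. The submitters' processing notes name CASAVA 2.17, Salmon 0.12, DESeq2 1.18 and mm10, without their roles, and the scaling method is not given in the sources used here. Whole reads could not be recovered from the values (55.5% to 68.0% of low values were whole multiples of the step, at a tolerance of 0.05), so no count test was run. All 8 columns were used, and 3398 genes were at 0 in every library.

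Values were transformed as log2(value + 1), a scale that understates changes of low genes, and a linear model with the cell line as a block was fitted in limma 3.58.1 (R 4.3.3, eBayes with a trend, 2-sided). Genes with a mean of at least 10 were kept and p-values adjusted by Benjamini-Hochberg at 0.05. Labels number both libraries of a line alike, which gives the pairing, and same-line deviations from the treatment means correlated at 0.63 to 0.72 across genes. In simulated data the fit called 50 of 92 genes changed by 1 on the log2 scale in the right direction, and 76 of 95 changed by 2. It also called 10 unchanged genes. A gene that did not pass can thus still have changed. Far fewer genes were changed in the simulation than were called in the real data, so these rates need not hold there.

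The members and gene lists were chosen with earlier results of these data known. Named genes were the 10 members, up to 4 higher and 4 lower genes of each list by size of log2 fold change, direct partners (Anxa1, Anxa2, Anxa11, Ahnak, Cacybp, Myh9) and Ager, chromosomal neighbours, Dusp6, and the 3 genes most like each of the 3 members with the widest range. Other genes that carry a value (Plat, Plau, Vdr, Trpv6, Cyp24a1, Plg, Calm2, S100a8, S100a9, marker genes) were named after their values were seen. Some genes and an allele that fall under this rule or belong to the mouse model are not reported here. Tables were handled in Python 3.11.15 with pandas 2.3.3 and numpy 2.4.6. Positions are from GENCODE M21, promoter windows from RefSeq GRCm38.p6, and per-kb levels use transcript lengths of GENCODE M21. The 14 alternatives were pseudocounts of 0.1 and 5, leaving out the filter, raising it to 50, equal totals, quantile normalization, median centring, no block, eBayes without trend or robust, and leaving out each line.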

Additional observations from a re-analysis of the deposited data

Results flagged for a closer look

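S100g with DMSO stood at 536 normalized counts in line #3, far from the 37.0 to 57.2 of the other 3 lines. The log2 fold change of S100g in line #1 was 3.20, apart from 1.79 to 1.92 in the other lines. These were the 2 cases in which 1 line stood apart among 51 groups of 4 values that were looked at, where chance gives about 1 in 20, or 2.55. For S100a4 the lines changed in opposite directions, with log2 fold changes from -1.50 to 0.38. For S100a1 they ran from -0.59 to 0.0057, where the values above 0 are level rather than higher. Neither difference between lines was tested, since each line has 1 library per treatment.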

How the results depend on the processing

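Over the 14 alternatives, 128 of the 140 values of the 10 S100 genes kept their direction and their side of the threshold, 11 kept the direction and lost the call, and 1 turned: S100a4 ranged from -0.49 to 0.14 over the fits that leave out 1 line, with 0.14 without line #3. S100a10, S100a13, S100a14 and S100a16 passed under all 14 alternatives. S100a6 lost its call under 4 alternatives (log2 fold change -0.70 to -0.41 over all 14, adjusted p up to 0.26), S100a11 under 6 (-0.55 to -0.20, adjusted p up to 0.35) and S100g only without the block for the line. Without that block 2205 genes were higher and 2347 lower, and counts fell to 0 higher for the members, 0 higher and 3 lower for annexins, and 2 higher and 5 lower for binding partners. Leaving out each line in turn gave 6 to 11 lower binding partners. Of the 650 values of 47 other named genes 595 kept direction and call, 50 lost the call, 1 gained it (Tchh without line #5) and 4 turned: Lor at -0.52 and Sprr2a3 at -0.23 with quantile normalization, and, over the fits that leave out 1 line, Lor from -0.50 (without line #3) to 0.42 and Sprr2a3 from -0.22 (without line #10) to 0.83. Equal totals moved the median of all genes by 0.13 and quantile normalization moved it by -0.10 on the log2 scale, and equal totals gave 5333 higher and 3285 lower genes, or 61.9% higher among calls against 51.6%, while quantile normalization gave 3779 higher and 4233 lower (47.2%) and median centring 3848 higher and 4492 lower (46.1%). S100a14, S100a3 and S100g fell to about 24 to 39 reads in their lowest library, which limits the precision of those values. The causes of these shifts were not tested.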

Other observations

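Other genes with EF-hands, the motif that S100 proteins carry, changed in both directions. Of 28 tested 10 were higher, 8 lower and 10 did not pass, with a median log2 fold change of 0.0046. Over all genes tested 27.3% were higher and 25.6% lower. Myl9, a myosin light chain of contractile cells, had 7.02, 4.68, 4.41 and 1.45 normalized counts with DMSO and 908, 288, 922 and 134 with trametinib in lines #1, #3, #5 and #10 (log2 fold change 6.42, adjusted p = 0.00012 in limma). Rcn3, Tesc and Nucb2 were also higher (3.66, 2.79 and 1.56). The sizes for Myl9 and Tesc, low with DMSO, depended on the pseudocount (6.75 and 3.75 with 0.1, and 5.55 and 1.88 with 5). Calm3, a calmodulin gene, and Cetn3 were lower at -0.62 and -0.48, while Calm2, also a calmodulin gene, did not pass (-0.09, adjusted p = 0.47 in limma). The call of Efhd2 (-0.50) was lost under 8 of the 14 alternatives, without line #3, #5 or #10 among them (adjusted p up to 0.34).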
